A study of Mus musculus with 6 samples.

Results

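The 10 genes described here encode RNA-binding proteins that set which exons a tissue keeps in its mRNAs. They are Mbnl1, Mbnl2 and Mbnl3, Celf1 and Celf2, Rbfox2, Qk, Esrp1, Ptbp1 and Ptbp2. They were taken by name from a table of 27179 gene identifiers, and all 10 had counts in every library and passed the filter on low counts. The table comes from poly(A)-selected RNA of mouse embryonic stem cells of the ES-E14TG2a background, with 3 libraries of cells that carry the R783H change in Trim71 and 3 libraries of wild-type (WT) cells. Trim71 carried a FLAG tag in both kinds of cell, so the tag is shared and not compared. All cells grew on gelatin in 2i + Lif medium, which holds inhibitors of GSK3 (CHIR99021) and MEK (PD0325901), N2N27 supplement and a little serum. The labels do not say whether the replicate letters A, B and C stand for clones, cultures or library preparations, so the tests measure the spread between these libraries, which may be technical.

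Tissue-regulated splicing factors bind short motifs in pre-mRNA and favour or repress nearby exons depending on where they bind. Mbnl proteins push transcripts towards the exon choices of differentiated cells and Celf proteins often act the opposite way on the same exons, most clearly in muscle and heart. Ptbp1 represses neuronal exons in stem cells and most other tissues and gives way to its paralog Ptbp2 as neurons form. Rbfox2, Qk and Esrp1 set exons of brain and muscle, of glia and muscle, and of epithelia, in that order. Mbnl1 mRNA has been described as bound and repressed by Trim71, a TRIM-NHL protein that binds RNA, so the comparison asks whether Mbnl1 and related regulators differ between cells with and without the R783H change.

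Several of these genes carry cassette exons that are themselves regulated, and these exons are shown because they tie the members to each other. Mbnl1 and Mbnl2 share a 54-nt coding exon, at chr3:60614683-60614736 on the plus strand and chr14:120395712-120395765 on the plus strand of GRCm38, the assembly also called mm10. Mbnl proteins repress it in their own transcripts, and the protein made with it is kept in the nucleus. Capitals mark the 46 of 54 positions that are identical in the pair.
Mbnl1: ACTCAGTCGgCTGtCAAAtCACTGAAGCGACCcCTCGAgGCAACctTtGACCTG
Mbnl2: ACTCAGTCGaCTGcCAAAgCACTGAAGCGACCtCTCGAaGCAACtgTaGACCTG
A 36-nt coding exon is annotated as alternative in all 3 Mbnl genes, at chr3:60621423-60621458 (plus), chr14:120403336-120403371 (plus) and chrX:51126126-51126161 (minus). Capitals mark the 23 of 36 positions that all 3 share.
Mbnl1: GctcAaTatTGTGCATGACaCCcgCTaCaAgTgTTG
Mbnl2: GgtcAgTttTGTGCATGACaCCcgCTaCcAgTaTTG
Mbnl3: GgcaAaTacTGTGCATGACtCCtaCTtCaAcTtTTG
The shared stretch holds the hexamer TGCATG, the letters that Rbfox proteins bind in RNA, searched on the transcript strand alone. Of 536 annotated internal exons of 36 nt, 6 (1.12%) hold it. The 3 Mbnl exons are among these, so the share is not a background apart from them. A match is a description of the sequence and not evidence of binding. Ptbp1 and Ptbp2 each carry a 34-nt exon, at chr10:79862014-79862047 (plus) and chr3:119724612-119724645 (minus). Its length is not a multiple of the codon, and Ptbp1 protein favours its skipping in both transcripts, which exposes them to nonsense-mediated decay. GENCODE marks 2 of the 2 skipping transcripts of Ptbp1 and 2 of the 3 of Ptbp2 as targets of that decay. Capitals in the next pair mark the 26 of 34 identical positions.
Ptbp1: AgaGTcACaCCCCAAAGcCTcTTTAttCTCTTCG
Ptbp2: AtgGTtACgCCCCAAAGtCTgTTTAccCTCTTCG
The deposited table counts reads per gene and does not separate transcripts with these exons from those without, so exon use itself was not analysed here.

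Total counts ran from 20894277 to 29079670 per library, with all 3 R783H libraries deeper than the 3 WT libraries. R783H B stood furthest from its group, with chi-square values per degree of freedom of 11.3 and 12.3 against A and C, which stood at 2.18 from each other. It gave the lowest level of its group for 8 of the 10 regulators, and WT A did so in its own group for 8 of 10. The 10 pluripotency markers, Pou5f1, Nanog and Esrrb among them, summed to 7597 to 7744 CPM in R783H and 7688 to 7769 in WT, where CPM are counts scaled to library size with TMM factors. Beneath that sum 3 of the 10 were called higher and 3 lower, where 33.5% and 30.9% of all tested genes were. The called markers included Dppa5a at 0.30 (SE 0.05), Zfp42 at -0.36 (SE 0.04) and Nanog at -0.23 (SE 0.04) on the log2 scale. Of 11 neuron markers 7 stayed under 1 CPM in every library and Dcx was at 0 throughout, as 5 of 8 muscle markers stayed under 1 CPM, with Myf5 at 0. Summed neuron markers ran from 347 to 381 CPM in R783H and 340.4 to 344 in WT, mostly from Stmn2. All 5 neuron markers that could be tested were called, 3 higher and 2 lower, against 64.5% of all tested genes called in either direction. They included Map2 at 0.96 (SE 0.21), Sox1 at 0.66 (SE 0.09) and Tubb3 at -0.80 (SE 0.07). Summed muscle markers ran from 41.1 to 54.4 against 21.4 to 22.4, with Ttn the highest. Of the 3 tested, 1 (Ttn) was called higher and 2 lower, where 33.5% and 30.9% of all tested genes were. Summed fibroblast markers ran from 3.21 to 4.26 against 4.03 to 4.80, where Thy1 was the 1 called of 4 tested (-2.74, SE 0.35). The part of these markers in the results was not tested. Trim71 mRNA stood at 143.7 ± 12.8 CPM in R783H and 140.5 ± 16.4 in WT (SD, n = 3 each), and counts per gene cannot show the R783H base change. Its log2 fold change was 0.03 (edgeR adjusted p = 0.743) and, with an offset for transcript length and GC content described with the length trend, -0.26 (edgeR adjusted p = 0.0023). An antisense gene, C130032M10Rik, shares exon bases with Trim71.

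When 14199 genes were tested by quasi-likelihood in edgeR and adjusted after Benjamini and Hochberg, 6 of the 10 regulators rose in R783H, 2 fell and 2 were not called. Mbnl1, Mbnl2, Celf2, Rbfox2, Qk and Esrp1 were the 6 that rose, Ptbp1 and Celf1 fell, and Mbnl3 and Ptbp2 did not pass. Across all tested genes 64.5% were called, 33.5% higher and 30.9% lower, so a call alone says little about a gene in this comparison. The groups did not overlap in CPM for 8 of the 10, against 68.1% of all genes. The median log2 fold change of the 10 was 0.29, against 0.03 over all tested genes, and with an offset for transcript length and GC content it was 0.02 against -0.03. A called change of at least 2-fold was found for Celf2, Esrp1 and Mbnl2, where 9.08% of all genes had one. The members were chosen with results of these data known, so these counts describe them and do not set them apart from other genes.

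**Figure D1:**
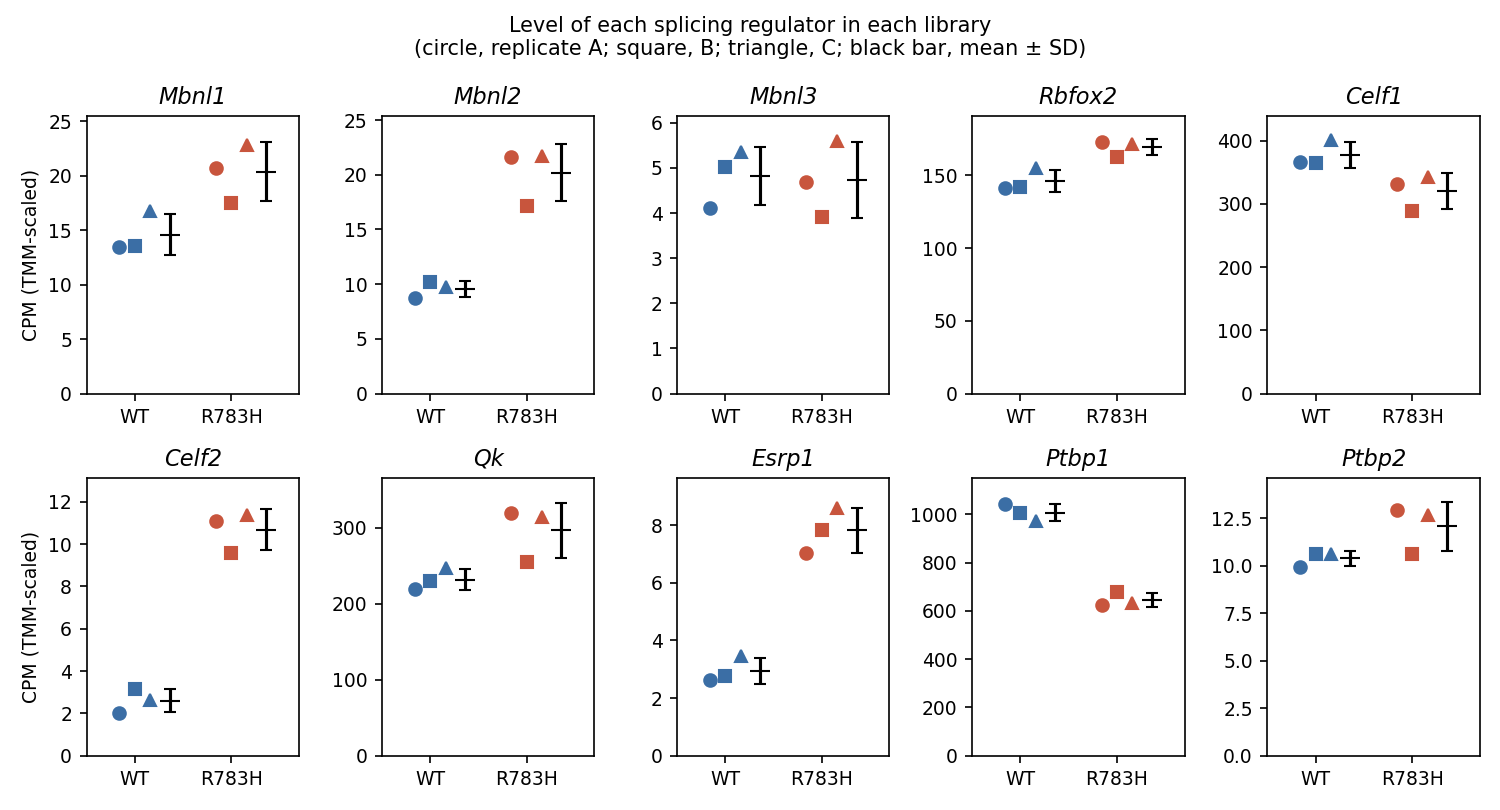
Level of each of the 10 splicing regulators in CPM (vertical axis, from 0) in the 3 WT and 3 R783H libraries, with the mean and SD of each group as a black bar. Celf2, Esrp1 and Mbnl2 have the largest fold changes, Ptbp1 is lower in all 3 R783H libraries, and Mbnl3 and Ptbp2 overlap between the groups.

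Among the Mbnl genes, Mbnl2 changed most. It lies at chr14:120275652-120431698 (Entrez 105559) and stood at 21.7, 17.2 and 21.7 CPM in R783H A, B and C and at 8.76, 10.2 and 9.75 CPM in WT A, B and C. Every R783H library was above every WT library, and the means were 20.2 ± 2.601 and 9.55 ± 0.715 CPM (SD, n = 3 each). The 2.11-fold rise corresponded to a log2 fold change of 1.07 (SE 0.11, edgeR adjusted p = 5.66e-06). An antisense gene, Gm26679, shares exon bases with Mbnl2, and the use of strand in counting is not given in the sources used here.

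Mbnl1, the founding member and the described Trim71 target, lies at chr3:60472559-60629750 (Entrez 56758). Its level was 20.7, 17.5 and 22.9 CPM in R783H and 13.5, 13.6 and 16.7 CPM in WT, in the order A, B, C. The groups did not overlap, but R783H B and WT C came within 1 CPM of each other. The log2 fold change was 0.48 (SE 0.11), a 1.397-fold rise (edgeR adjusted p = 0.00283). With each library left out in turn it ran from 0.38 to 0.59 and stayed called.

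Mbnl3, the paralog known for holding back muscle differentiation, lies at chrX:51113494-51205990 (Entrez 171170) and was the lowest of the family. It stood at 4.69, 3.91 and 5.604 CPM in R783H and 4.11, 5.02 and 5.34 CPM in WT, with full overlap of the groups. Its log2 fold change of -0.03 (SE 0.15) did not pass (edgeR adjusted p = 0.883), and at 83 to 166 counts per library its error was the largest of the 10. Its sign was not stable, being positive under 4 of 16 alternative settings.

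The Celf pair moved in opposite directions. Celf2, at chr2:6539694-7396341 (Entrez 14007), is abundant in brain, heart and blood cells. Its counts were 334, 272 and 337 in the R783H libraries and 41, 77 and 56 in the WT libraries, in the order A to C, or 11.1, 9.58 and 11.4 CPM against 2.03, 3.14 and 2.62 CPM. The lowest R783H library was well above the highest WT library. This 4.07-fold rise was the largest of the 10 regulators, with a log2 fold change of 2.03 (SE 0.14, edgeR adjusted p = 5.62e-07) and 0.549% of all tested genes above it. Gm26565, on the antisense strand, shares exon bases with Celf2.

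Celf1, at chr2:90940259-91019497 (Entrez 13046), is the widely expressed member and also promotes the decay of mRNAs with GU-rich elements. It stood at 331, 288 and 343 CPM in R783H and 366, 365 and 401 CPM in WT. All 3 R783H libraries were lower, with means of 321 ± 28.5 and 377 ± 20.3 CPM (SD, n = 3 each). Its log2 fold change of -0.23 passed (SE 0.06, edgeR adjusted p = 0.00796). With library size alone as the scaling it was -0.15 and was not called (edgeR adjusted p = 0.0668).

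Ptbp1, the polypyrimidine-tract binding protein that keeps neuronal exons skipped, fell. The gene lies at chr10:79854432-79864435 (Entrez 19205) and was the most abundant of the 10 per length. Its level was 625, 678 and 632 CPM in R783H and 1042, 1005 and 974 CPM in WT, with a wide gap between the groups. The log2 fold change was -0.64 (SE 0.05), so WT stood 1.56-fold above R783H (edgeR adjusted p = 6.57e-07). Leaving out each library gave -0.70 to -0.62. E130317F20Rik, Gm17134 and Plppr3 share exon bases with Ptbp1 on the antisense strand.

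Ptbp2, the neuronal paralog whose 34-nt exon is printed above, lies at chr3:119718741-119784647 (Entrez 56195). It stood at 12.9, 10.6 and 12.7 CPM in R783H and 9.95, 10.6 and 10.6 CPM in WT. R783H B lay at the WT level while A and C lay above it. The log2 fold change was 0.22 (SE 0.09, edgeR adjusted p = 0.0634), which did not pass. Without R783H B it was 0.28 and was called (edgeR adjusted p = 0.0078), and with library size alone it was 0.30 and called (edgeR adjusted p = 0.0188). Ptbp3, the third paralog, which acts much like Ptbp1 and is best known from blood cells, rose from 117.6 ± 12.7 to 166 ± 16.6 CPM (SD, n = 3 each), a log2 fold change of 0.50 (SE 0.08, edgeR adjusted p = 3.19e-04), or 0.21 (SE 0.04) and still called with the length and GC offset.

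Esrp1, which sets exons typical of epithelial cells in genes such as Fgfr2 and Enah, lies at chr4:11331933-11386783 (Entrez 207920). It stood at 7.05, 7.82 and 8.61 CPM in R783H and 2.62, 2.77 and 3.47 CPM in WT. The groups were far apart relative to their spread. Its 2.65-fold rise gave a log2 fold change of 1.405 (SE 0.13, edgeR adjusted p = 4.67e-06). Gm26663 shares exon bases with Esrp1 on the antisense strand. Its paralog Esrp2 had 14.4, 16.8 and 14.6 CPM in R783H and 15.6, 17.2 and 15.98 in WT and was not called (log2 fold change -0.09, SE 0.08, edgeR adjusted p = 0.332). Nfatc3 and 1810019D21Rik share exon bases with Esrp2 on the antisense strand. The difference between the Esrp1 and Esrp2 changes was not tested.

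Qk and Rbfox2 were abundant and rose a little. Qk, the quaking gene at chr17:10206471-10319361 (Entrez 19317), best known from myelinating glia and smooth muscle, stood at 319.6, 255 and 314 CPM in R783H and 219, 229.7 and 247 CPM in WT. R783H B lay only just above WT C. The log2 fold change was 0.36 (SE 0.08, edgeR adjusted p = 0.00213). Rbfox2, the Rbfox gene expressed in stem cells, lies at chr15:77078990-77308434 (Entrez 93686) and stood at 173, 163 and 171 CPM in R783H and 142, 142 and 155 CPM in WT. Its groups did not overlap either, with a log2 fold change of 0.21 (SE 0.05, edgeR adjusted p = 0.00323).

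Transcript length moved with these changes. Of the 10 regulators 9 have a longest transcript above the median of tested genes, 3364 nt, and the median over the 10 was 5608 nt. Across 10 bins of equal size by length, the median log2 fold change went from -0.17 in the shortest bin, up to 1406 nt, to 0.31 in the longest, above 6792 nt, where Celf1, Celf2, Qk and Rbfox2 belong. An offset for transcript length and GC content was fitted per library to these same counts, so it flattens such a trend by construction. It left the median of that longest bin at 0.0046. With it Qk stood at 0.02 (SE 0.03, edgeR adjusted p = 0.565) and Rbfox2 at -0.02 (SE 0.04, edgeR adjusted p = 0.668), so their calls held only without it. Mbnl1 was 0.25 (SE 0.07) and still called (edgeR adjusted p = 0.00576).

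The larger changes were kept under the same offset. Celf2 was 1.69 (SE 0.12), Esrp1 1.32 (SE 0.13) and Mbnl2 0.89 (SE 0.09), all called. Ptbp1, the shortest of the 10 at 3169 nt, was -0.65 (SE 0.03). Celf1 moved further down, to -0.52 (SE 0.04, edgeR adjusted p = 9.27e-09). Ptbp2 was 0.0088 and Mbnl3 -0.20, neither called. With the offset 4 of the 10 regulators were thus higher and 2 lower, where 31.2% and 37.5% of 13067 genes with a length were called in those directions and 68.6% in either. The part of transcript length in these changes was not tested.

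**Figure D2:**
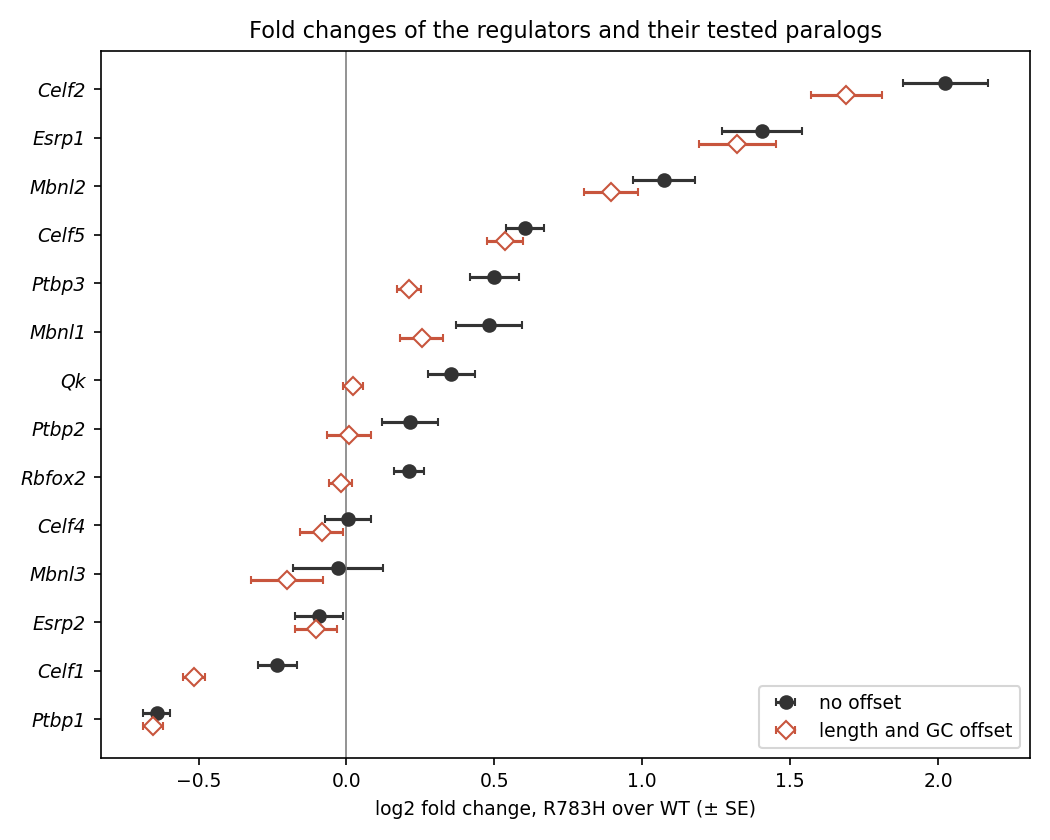
Log2 fold change of R783H over WT (horizontal axis, bars are SE) for the 10 regulators and their 4 tested paralogs, without (filled circles) and with (open diamonds) the length and GC offset. Celf2, Esrp1 and Mbnl2 stay well above 0 in both, while Qk and Rbfox2 move to 0.02 and -0.02.

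**Figure D3:**
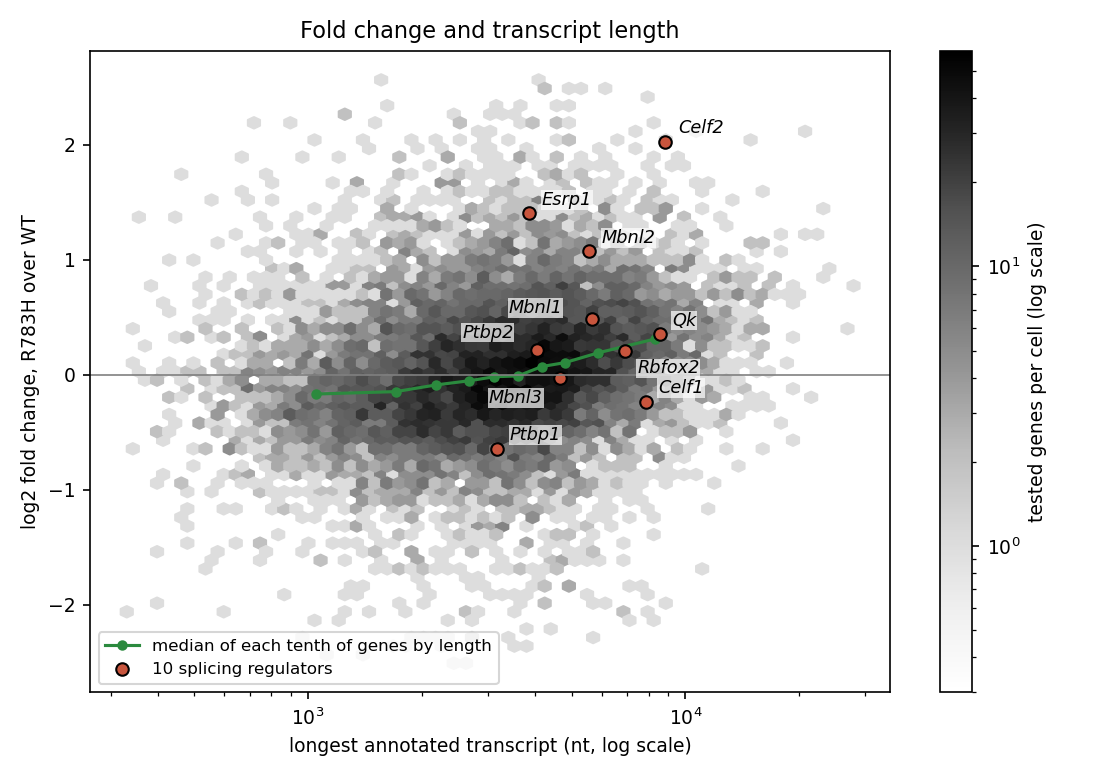
Log2 fold change (vertical axis) against the longest annotated transcript (horizontal log axis, nt) for 13017 genes in grey cells, leaving out 50 outside the plotted ranges, with the median of each of 10 bins by length in green and the 10 regulators in red. The medians climb from -0.17 to 0.31, and Celf2, Esrp1 and Mbnl2 lie far above them. Ptbp1, Celf1, Mbnl3 and Rbfox2 lie below the medians of their bins.

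Ratios of paralogs within a library do not depend on how libraries are scaled, and 4 were compared. Mbnl2 counts were 104.5%, 98.2% and 94.8% of Mbnl1 counts in R783H A, B and C, and 65.1%, 74.8% and 58.3% in WT. The 2 genes were thus counted about equally in R783H, and Mbnl2 less than Mbnl1 in every WT library. The mean log2 ratio was higher by 0.59 in R783H. Mbnl3 was 22.6%, 22.4% and 24.5% of Mbnl1 in R783H and 30.5%, 36.9% and 31.9% in WT, a log2 difference of -0.51.

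Ptbp2 counts were 2.07%, 1.56% and 2.00% of Ptbp1 counts in R783H and 0.955%, 1.06% and 1.09% in WT. Ptbp1 thus remained far above Ptbp2 in every library, and the log2 ratio was higher by 0.85 in R783H. Celf2 was 3.36%, 3.32% and 3.32% of Celf1 in R783H and 0.555%, 0.86% and 0.655% in WT, a log2 difference of 2.30. None of the 4 ratios overlapped between the groups. Every pair holds a gene called by itself, so this separation does not stand apart from those calls. Of all tested genes 68.1% did not overlap in CPM either, which is a share of single genes and not of ratios. The exact two-sided permutation test gave p = 0.10 for each ratio, and 0.10 after Benjamini-Hochberg adjustment over the 4. This is the smallest p that 3 libraries against 3 allow. With the length and GC offset, the edgeR log2 fold changes within the 4 pairs differed by 0.64, -0.46, 0.66 and 2.21, in the order Mbnl2, Mbnl3, Ptbp2 and Celf2. These are differences of fitted fold changes and not of mean log2 ratios of raw counts.

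**Figure D4:**
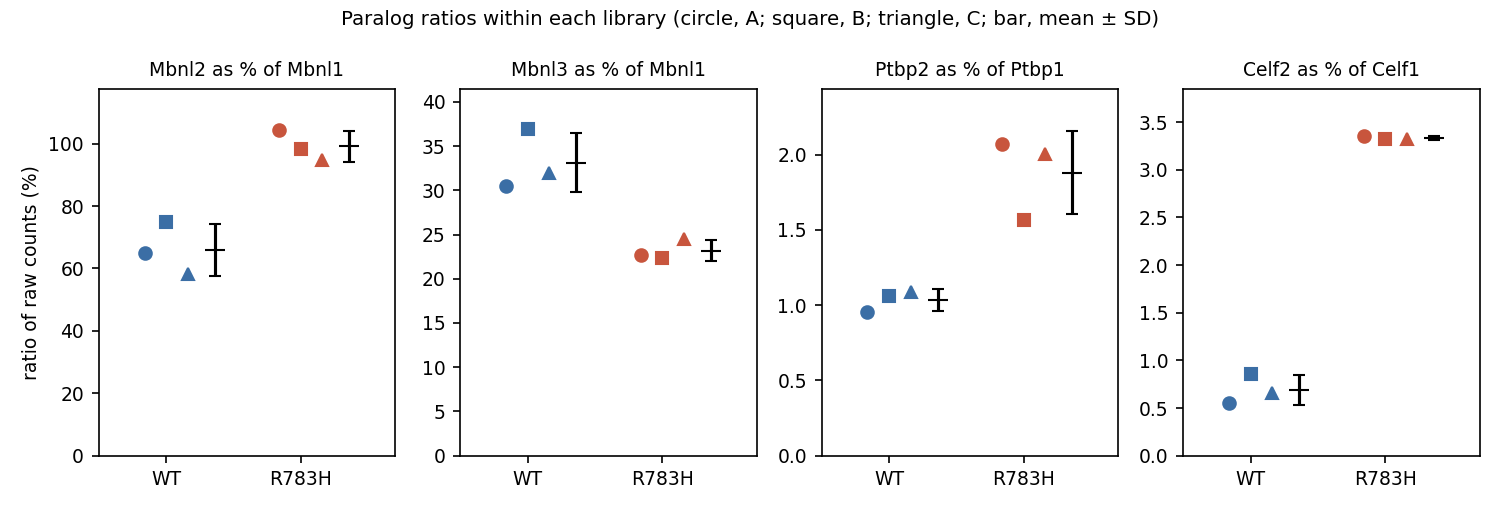
Raw counts of one paralog as a percentage of another (vertical axes, from 0) in each library, with the mean and SD of each group as a black bar. Each ratio separates the groups, upward in R783H for Mbnl2:Mbnl1, Ptbp2:Ptbp1 and Celf2:Celf1 and downward for Mbnl3:Mbnl1. Of all tested genes 68.1% did not overlap between the groups in CPM, which is a share of single genes and not of ratios.

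Levels between genes were compared as CPM per kilobase of the longest transcript. In WT, Ptbp1 stood at 318 ± 10.8, followed by Celf1 at 48.0 ± 2.59, Qk at 27.1 ± 1.61 and Rbfox2 at 21.2 ± 1.13 CPM per kilobase (SD, n = 3 each). Mbnl1 (2.58 ± 0.328) and Ptbp2 (2.57 ± 0.0953) came next among the 10 and overlapped. Below them were Mbnl2 at 1.72 ± 0.129, Mbnl3 at 1.04 ± 0.137, Esrp1 at 0.765 ± 0.117 and Celf2 at 0.293 ± 0.0627 CPM per kilobase, and of these neighbours only Mbnl3 and Esrp1 overlapped. In R783H the first 4 of the 10 kept their order, with Ptbp1 at 204 ± 9.15 and Celf1 at 40.8 ± 3.64, and Celf1 overlapped Qk (34.7 ± 4.18). Mbnl2 (3.63 ± 0.468) and Mbnl1 (3.60 ± 0.479) overlapped there, while Esrp1 reached 2.03 ± 0.201 and Celf2 1.21 ± 0.109, the latter overlapping Mbnl3 at 1.02 ± 0.182 CPM per kilobase.

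Of 8 further paralogs, 4 were counted too low to be tested. Rbfox1 had 4, 4 and 3 counts in R783H and 6, 2 and 2 in WT, and Rbfox3, the NeuN antigen of mature neurons, had 0, 1 and 0 against 3, 5 and 0. Celf3 had at most 9 counts in a library and Celf6 at most 7, so no fold is given for these. Of the other 4, Celf5 rose from 16.1 ± 0.781 to 24.5 ± 0.251 CPM (SD, n = 3 each), a log2 fold change of 0.60 (SE 0.06, edgeR adjusted p = 1.02e-05). Celf4 stood at 12.4 ± 0.393 and 12.3 ± 0.732 CPM in R783H and WT (SD, n = 3 each) and was not called. An antisense gene, Gm16105, shares exon bases with Celf5.

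Of 27 other tissue-regulated splicing factors 25 were tested, of which 8 rose, 9 fell and 8 did not pass. Over all tested genes 64.5% were called, 33.5% higher and 30.9% lower. The median log2 fold change of the 25 was -0.06 against 0.03 over all genes. Both directions occurred among factors of neurons. Msi1, a translational regulator of neural progenitors that also affects splicing, rose from 19.8 ± 0.851 to 37.2 ± 0.95 CPM (SD, n = 3 each), a log2 fold change of 0.91 (SE 0.06). Srrm4, which switches on neuronal microexons, rose by 0.85 (SE 0.14), and Nova1, a neuronal factor, by 0.50 (SE 0.15). Nova1 was not called with the length and GC offset (0.19, edgeR adjusted p = 0.191) or without R783H A (0.38, edgeR adjusted p = 0.0609). Elavl3 and Elavl4, neuronal Hu proteins, changed by -1.39 (SE 0.26) and -0.92 (SE 0.25), at 16 to 52 counts per library. Khdrbs3, also called Slm2, a brain-enriched factor known for setting neurexin exons, changed by -0.49 (SE 0.06).

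Outside the neuronal factors, Rbm38, a p53 target that regulates splicing and mRNA stability, fell from 176 ± 7.01 to 83.5 ± 3.08 CPM (SD, n = 3 each), a log2 fold change of -1.08 (SE 0.05). Rbm4b rose by 0.42 (SE 0.09), or 0.21 (SE 0.07) with the length and GC offset. Rbm4 holds a near-identical stretch, so reads of Rbm4b and Rbm4 could be shared. Raver1, a cofactor of Ptbp1 chosen for mention after its values were seen, changed by -0.42 (SE 0.06). Srrm4, Rbm38, Rbm4b and Raver1 share exon bases with antisense genes, and Elavl3 and Nova1 with other gene models. Raver1 also shares them with Gm38431 and Mir7082 on its own strand. With the length and GC offset 6 of the 25 rose and 12 fell, where 31.2% and 37.5% of all genes with a length did. For the 8 called genes named by rule, Msi1, Srrm4, Nova1, Elavl3, Elavl4, Khdrbs3, Rbm38 and Rbm4b, the edgeR adjusted p was 3.39e-07, 2.92e-04, 0.0134, 6.62e-04, 0.00731, 4.72e-05, 4.69e-08 and 0.00198.

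Genes that host exons known to be set by these regulators were read for total mRNA, which says nothing of the exon. Of 15 such genes 13 were tested, with 3 higher, 4 lower and 6 not called, or 3, 7 and 3 with the length and GC offset. Over all genes 33.5% were called higher and 30.9% lower, or 31.2% and 37.5% with that offset. Insr, the insulin receptor, whose exon choice is an Mbnl and Celf target, rose from 13.5 ± 1.34 to 28.2 ± 2.54 CPM (SD, n = 3 each; log2 fold change 1.07, SE 0.09, edgeR adjusted p = 1.95e-06). Gabbr1, a GABA receptor gene that Ptbp1 keeps low through nonsense-mediated decay, rose from 50.8 ± 1.80 to 93.6 ± 9.55 CPM (SD, n = 3 each; log2 fold change 0.88, SE 0.07, edgeR adjusted p = 1.52e-06). Dlg4, which Ptbp1 is known to hold down in the same way, had a log2 fold change of 0.05 and was not called (SE 0.14, edgeR adjusted p = 0.776). It was singled out after its values were seen. The part of Ptbp1 in the levels of Gabbr1 and Dlg4 was not tested. Foxp1, which has a stem-cell exon repressed by Mbnl proteins, changed by -0.39 (SE 0.10). Gm20696 and Gm49348 share exon bases with Foxp1 on its own strand.

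Because Esrp1 marks epithelial cells, 10 epithelial and 9 mesenchymal genes were set beside it. Of the epithelial genes 7 rose, 0 fell and 3 did not pass, with a median log2 fold change of 0.71, also 0.70 with the length and GC offset. The 3 were Grhl2 (0.29), Krt8 (-0.01) and Krt18 (-0.17). Among all tested genes 33.5% rose and 30.9% fell by the same rule, or 64.5% in either direction. Before adjustment, 0 of the 10 epithelial genes were lower with an edgeR p under 0.05, and DESeq2 also called 0 lower. The list was chosen with earlier results of these data known, so these counts describe it only. Cldn7, a tight-junction claudin, rose from 3.23 ± 0.153 to 8.76 ± 0.154 CPM, Ocln (occludin) from 5.37 ± 0.826 to 11.8 ± 0.482 and Cldn4 from 75.9 ± 2.47 to 148.6 ± 8.96 CPM (SD, n = 3 each). Mesenchymal genes were mixed, with 2 higher and 2 lower of 7 tested. Fn1, fibronectin, which shares exon bases with the antisense Apol7d, rose from 864 ± 30.7 to 2683 ± 35.0 CPM and Twist1 from 2.71 ± 0.589 to 5.48 ± 0.917, while Vim, vimentin, fell from 246 ± 11.8 to 168 ± 4.19 CPM (SD, n = 3 each). Bulk RNA does not tell more cells with a transcript from more transcript per cell.

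**Figure D5:**
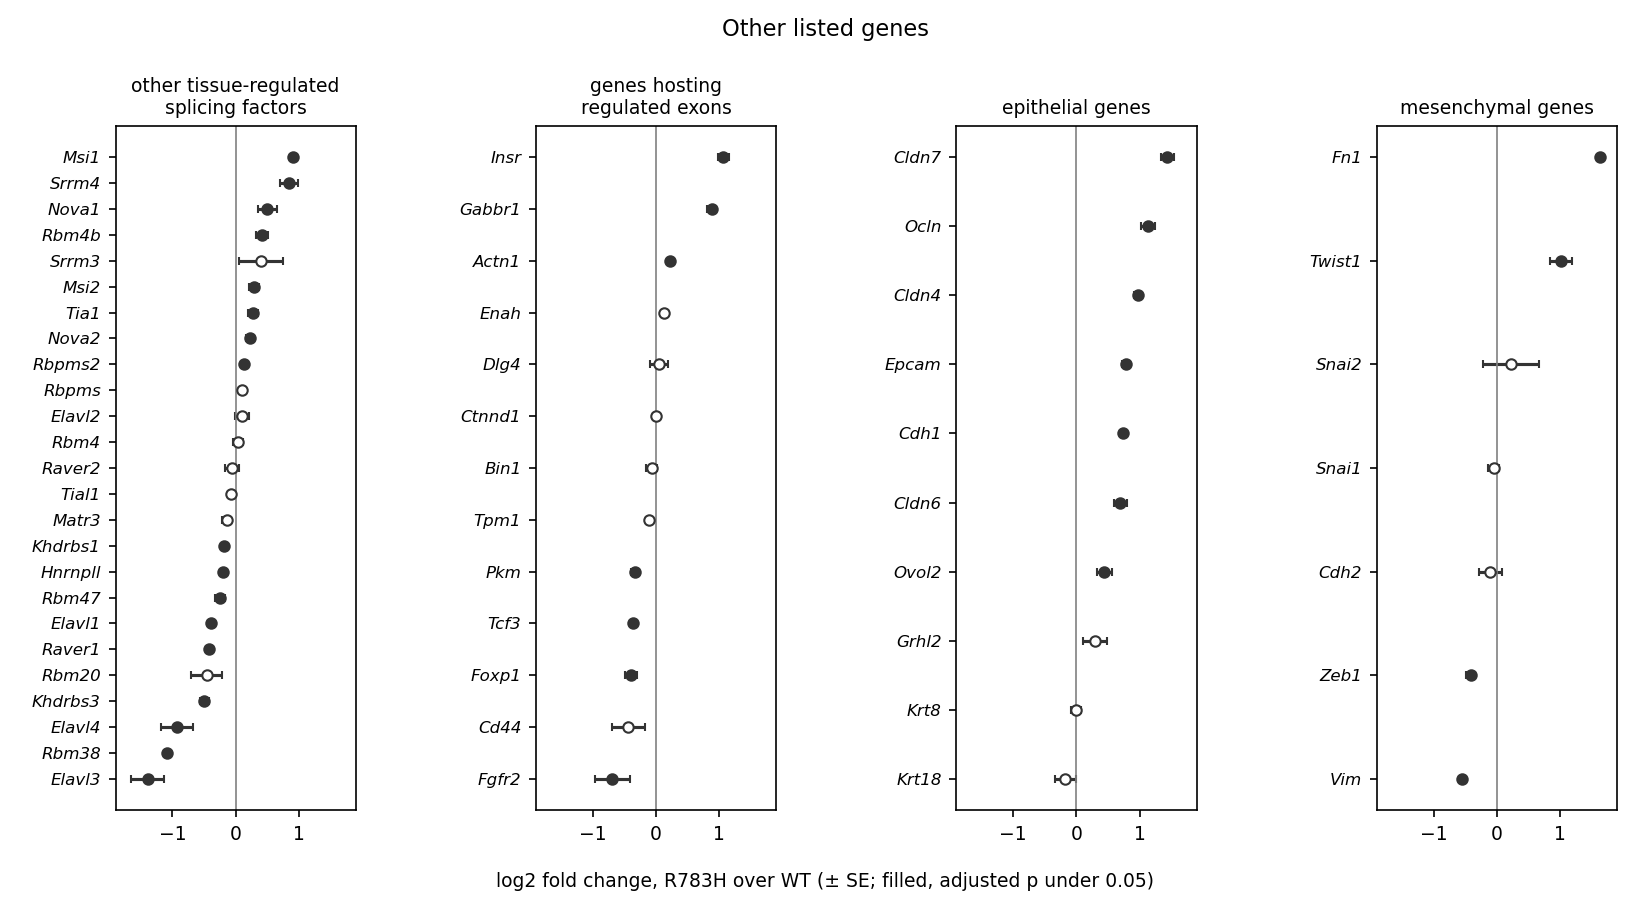
Log2 fold change of R783H over WT (horizontal axes, bars are SE) for the tested genes of 4 lists, filled where the adjusted p of edgeR's quasi-likelihood test is under 0.05. The 7 called of 10 epithelial genes are all to the right of 0, and the other splicing factors spread from Elavl3 at -1.39 to Msi1 at 0.91. Of all tested genes 64.5% were called, 33.5% higher and 30.9% lower.

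Among 9044 genes with a symbol and a mean of at least 10 CPM, the log2 CPM of Ino80d, Trps1, Mycbp2, Zfp369 and Alms1 followed Mbnl1 most closely over the 6 libraries, with Pearson r from 0.995 to 0.997. Like Mbnl1 these genes were low in R783H B and high in WT C within their groups. All but Zfp369 have longest transcripts of 9859 nt or more. With the length and GC offset the log2 fold changes of Trps1, Mycbp2 and Alms1 turned to -0.08, -0.05 and -0.12. Because the points share libraries and a difference between groups, r is a description only.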

How the data were processed

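Raw gene counts were deposited by the authors as whole numbers per Entrez identifier, 1 column per library, and all columns were assigned by name. Per the submitters' processing notes CASAVA 1.4, HISAT2 and SAMtools were used with mm10; the counting tool, gene annotation and use of strand are not given in the sources used here. Symbols came from RefSeq names, and transcript length, GC content and exons from GENCODE M21 on GRCm38; near-identical transcripts were sought with BLAST 2.17.0.

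Counts were filtered with filterByExpr (minimum count 10), scaled by TMM and tested with edgeR 4.0.16 (quasi-likelihood, R 4.3.3) over 14199 genes, with Benjamini-Hochberg adjustment and a threshold of 0.05. Error bars are SD over 3 libraries or SE of the fit. Alternatives used DESeq2 1.42.0, limma 3.58.1, other scalings and filters, equal depth, single libraries left out, and a length and GC offset (mgcv 1.9.3); that offset applied to paralog ratios was added after seeing the data. The scripts were tested on simulated data.

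The members and gene lists were chosen with earlier results of these data known. All members and paralogs are named whatever their values. Of the other splicing factors up to 8 called genes with the largest change and at least 1 CPM in a group are named, of each other list up to 3, and the 5 genes most like Mbnl1.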

Additional observations from a re-analysis of the deposited data

How the results depend on the processing

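Mbnl1, Mbnl2, Celf2, Esrp1 and Ptbp1 kept their direction and call under all 16 alternatives. Over these, 8161 (without WT B) to 9882 (without R783H B) genes were called, against 9152. With group means removed, R783H and WT libraries of the same letter had r of -0.07, 0.00682 and 0.0851. Those of unlike letters ran from -0.133 to 0.126. With 3 libraries a group this cannot decide whether the letters mark pairs. A replicate block gave 9260 genes called and the same counts of members. With library size alone as the scaling 1 member was called lower instead of 2. Ptbp2 was called higher with that scaling and without R783H B, and Qk and Rbfox2 were not called with the length and GC offset. Some signs turned, and the cause was not tested. Mbnl3 was 0.0532 with library size alone and ran from -0.178 to 0.0661 with libraries left out. Celf4 was -0.0152 by DESeq2, -0.0156 with RLE factors, -0.0841 with the length and GC offset, and -0.0382 to 0.0487 with libraries left out. With that offset Rbfox2 was -0.0201, Trim71 -0.26, Trps1 -0.0792, Mycbp2 -0.0467 and Alms1 -0.119, the last 3 from 0.29, 0.41 and 0.26. Trim71 ran from -0.0219 to 0.131 with libraries left out. Rbfox1, Rbfox3, Celf3 and Celf6 had too few counts to be tested, and p-values reflect 3 libraries a group.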

Other observations

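Ttn, the giant sarcomere protein and a well-known target of muscle splicing factors, was the muscle marker with the largest change. It stood at 42.1 ± 7.65 CPM in R783H and 10.95 ± 0.96 in WT (SD, n = 3 each), a log2 fold change of 1.94 (SE 0.13) and edgeR adjusted p = 4.01e-07, and 1.03 with the length and GC offset. Its longest transcript is 106824 nt, and Gm13938 shares its exon bases on the antisense strand. Des, a muscle intermediate filament, and Myh3, an embryonic myosin, changed by -0.60 and -0.54, with Myh3 not called without R783H C (edgeR adjusted p = 0.0849) or without WT B (edgeR adjusted p = 0.128), so the muscle genes that were counted did not move together.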
